A study of Mus musculus with 6 samples.

Results

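Of the 49585 genes counted in sorted brain microglia of male mice aged 3 months, 9 encode the enzymes described here, which make or use kynurenine and NAD. Microglia are the resident macrophages of the brain. The 9 genes are Ido1, Afmid, Kmo, Kynu and Haao of the kynurenine pathway and Qprt, Nampt, Nmnat1 and Nadsyn1 of NAD synthesis. They were chosen by their place in the pathway together with one measured value, the loss of Haao in the knockout. The difference between genotypes is therefore given for them as a description, with no p-value. The study holds 3 wild-type (WT) libraries and 3 with the genotype label IRF8KO, a knockout of the transcription factor IRF8 with no allele named in the labels. Each library came from its own brain, by isolation without enzymes and flow sorting into TRIzol, and the sorting gate is not given in the sources used here.

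In the kynurenine pathway, tryptophan is opened by a dioxygenase (IDO1 in immune cells), freed of its formyl group by AFMID, hydroxylated by KMO and split by KYNU into hydroxyanthranilic acid. HAAO opens the ring of that acid, and the product closes to quinolinic acid, an agonist of NMDA-type glutamate receptors. QPRT removes quinolinic acid by turning it into a mononucleotide precursor of NAD. NAD is also rebuilt from nicotinamide by NAMPT, its rate-limiting salvage enzyme; NMNAT1 adds the adenylyl group in the nucleus, and NADSYN1 makes NAD by amidation at the end of the route from quinolinic acid. In the brain, the quinolinic acid branch is generally placed in microglia and macrophages.

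The sequence just before the transcription start is shown for Haao, which was counted in WT only, beside Nadsyn1, the member whose groups were closest on the fold scale. RefSeq windows were found for 7 of the 9 genes (build GRCm38.p6), none for Ido1 and Kynu. Each is the 250 bases upstream of the RefSeq start, read 5′ to 3′ on the gene's own strand, with CpG dinucleotides in capitals. Both windows lie on the minus strand, at chr17:83846791-83847040 for Haao and chr7:143822853-143823102 for Nadsyn1.
Haao: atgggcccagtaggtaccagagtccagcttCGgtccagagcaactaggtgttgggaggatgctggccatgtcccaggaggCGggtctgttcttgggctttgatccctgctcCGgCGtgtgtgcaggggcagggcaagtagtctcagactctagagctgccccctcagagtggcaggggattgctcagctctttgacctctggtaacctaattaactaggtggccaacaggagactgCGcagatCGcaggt
Nadsyn1: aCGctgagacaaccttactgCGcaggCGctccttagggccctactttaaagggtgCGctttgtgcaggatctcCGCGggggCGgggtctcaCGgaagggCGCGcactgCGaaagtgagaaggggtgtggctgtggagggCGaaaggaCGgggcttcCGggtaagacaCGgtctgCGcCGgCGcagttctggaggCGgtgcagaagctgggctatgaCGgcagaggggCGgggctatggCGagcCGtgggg
The Haao window held 6 CpG, the median of 32526 such mouse windows, and the Nadsyn1 window held 23. Qprt had 6, Afmid 15, Kmo 5 and Nampt 27, and the windows of Nmnat1, which has 2 overlapping ones, had 24 and 23. The ratio of observed to expected CpG was 0.287 for Haao and 0.260 for Qprt, below the median of 0.378, and between 0.683 and 0.927 for Afmid, Nampt, Nmnat1 and Nadsyn1. Among the 6 genes with enough counts to be tested, Haao and Qprt thus had the lowest ratios, at percentiles 40.9 and 37.6 of all windows. Annotations differ at these starts: in GENCODE the Haao window lies inside the first exon of a retained-intron transcript, and 197 of the 250 bases of each of the Qprt and Kmo windows are exonic. The windows of Afmid, Nampt and Nadsyn1 hold 0 exonic bases of their genes and those of Nmnat1 0 and 30, so unlike regions are compared.

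Both strands of these windows were also searched for 6 short motifs, which may overlap each other. The ones bound by the IRF and ETS families were GGAANNGAA (core of the ETS-IRF composite site), GAAANNGAA (core of the interferon-stimulated response element), and GAGGAAGT (a PU.1 site), which occur in 6.95%, 7.15% and 2.45% of all windows. The AP-1 site TGANTCA occurs in 6.73% of them. The E-box CACGTG occurs in 6.04%. The TATA box TATAAA occurs in 12.3%. The single match among the windows of the 7 genes was 1 GAGGAAGT in Kmo, a gene with 0 counts. A match or its absence describes these letters in this window and nothing else.

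The libraries held between 3658917 and 11098363 gene counts, and values are given as counts and as CPM (counts per 1000000 after TMM scaling of the library sizes). Apoe took 25.5% to 33.7% of the counts in the IRF8KO libraries and at most 0.324% in WT, so the scaling matters: the median log2 fold change of the 11041 tested genes was −0.11 with TMM and −0.61 with library size alone, and 50.5% of called genes were higher with TMM against 25.4% with library size alone. In all, 2109 of the tested genes were called (19.1%; quasi-likelihood test of edgeR with a Benjamini-Hochberg adjusted p under 0.05), 9.64% higher and 9.46% lower. Irf8 itself was counted at 1016 ± 336 CPM in WT against 747 ± 99.9 CPM in IRF8KO (SD, n = 3; log2 fold change −0.44, SE 0.33, edgeR Benjamini-Hochberg adjusted p = 0.368). It was called lower in 1 of 16 alternatives, library size alone (−0.90, edgeR adjusted p = 0.0076). The labels do not name the deleted part, so whole-gene counts do not check the genotype, which rests on the labels. Of 10 microglial markers, all were counted, 4 were lower and 1 higher in IRF8KO (edgeR), and Sall1 was at 0 in all IRF8KO libraries. In bulk samples, fewer cells of a type and less RNA per cell cannot be told apart.

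Some libraries and cell markers moved in ways that touch the results. All 7 counted markers of 9 for border-associated macrophages, the macrophages of the meninges and vessels, were called higher (edgeR). Their summed level was 609 to 834 CPM in WT and 3707 to 4911 CPM in IRF8KO, with Lyve1 and Cd209f at 0 counts in every library. Nearly all of the WT sum was Stab1, at 602, 651 and 823 CPM in replicates 1 to 3. The mean of Stab1 in IRF8KO was 1950 CPM, and that of Pf4 went from 1.79 CPM in WT to 1881 CPM. Cd163 and F13a1 had 0 counts in WT. Neutrophil markers summed to 326 CPM in IRF8KO replicate 2 and to at most 1.12 CPM in every other library. Neuron markers summed to 0.354 to 7.86 CPM in WT and 18.9 to 24.7 CPM in IRF8KO, with 2 of 3 tested genes called higher (edgeR). Astrocyte markers summed to 95.9 to 196 CPM in WT and 25.1 to 52.2 CPM in IRF8KO, yet 3 of the 4 tested genes were called higher and 1, Slc1a3, lower (edgeR). Monocyte markers summed to 45.9 CPM in IRF8KO replicate 2 and to at most 4.33 CPM elsewhere, with the 1 tested gene, Fn1, called higher (edgeR). Dendritic cell markers summed to 5.45 to 7.20 CPM in WT and 22.2 to 29.7 CPM in IRF8KO. That rise was carried by Zbtb46, called higher (edgeR), with means of 4.62 CPM in WT and 25.7 CPM in IRF8KO. The means of Flt3 (0.926 to 0.742 CPM), Xcr1 (0.360 to 0.143) and Ccr9 (0.332 to 0) were lower in IRF8KO. These were too low to be tested, and Clec9a, Cd209a and Ccr7 had 0 counts in every library. Endothelial markers summed to 18.6 to 30.3 CPM in WT and 1.77 to 9.87 CPM in IRF8KO, with Pecam1 called lower (edgeR). The endothelial marker Flt1 went the other way, with 0 counts in WT and 5, 88 and 59 in IRF8KO replicates 1 to 3, too low to be tested. Of 5 tested oligodendrocyte markers, Cnp was called lower (edgeR). Their part in the values below was not tested, except where a fit without a library is given.

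Of the members upstream of Haao, Ido1, Kmo and Kynu were nearly silent. Ido1 (ENSMUSG00000031551, chromosome 8, 24584136 to 24597009, minus strand), which opens the tryptophan ring, had 0 counts in all 6 libraries. Kmo (ENSMUSG00000039783, chromosome 1, 175620381 to 175662116, plus strand), which makes hydroxykynurenine, also had 0 counts in all 6. A count of 0 allows up to 3 counts, or 0.212 to 0.584 CPM depending on the library, and this floor covers counting error only. Kynu (ENSMUSG00000026866, chromosome 2, 43555329 to 43682715, plus strand), which makes hydroxyanthranilic acid, the substrate of HAAO, had 0, 12 and 0 counts in WT replicates 1, 2 and 3 and 1, 0 and 0 in IRF8KO. The ratio of its scaled counts, IRF8KO over WT, was 0.0831, with an exact 95% counting interval of 0.00194 to 0.562. All WT counts of Kynu came from replicate 2, so the groups overlap and no difference between mice can be read from it.

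Of the 5 members in the kynurenine pathway, only Afmid was counted in all 6 libraries. Afmid (ENSMUSG00000017718, chromosome 11, 117825924 to 117839908, plus strand), which frees kynurenine, had 19, 36 and 16 counts in WT replicates 1 to 3 and 39, 105 and 58 in IRF8KO replicates 1 to 3. These were 3.70, 2.55 and 2.21 CPM in WT and 6.26, 9.42 and 6.29 CPM in IRF8KO. Every IRF8KO library lay above every WT library. The means were 2.82 ± 0.781 and 7.32 ± 1.82 CPM (SD, n = 3). The fitted log2 fold change was 1.39 (SE 0.54), and the gene was not called. With library size alone the log2 fold change was 0.89. Other genes cover 46.6% of the Afmid exons, so its counts are uncertain: 1566 bases are shared with the same-strand gene Gm20708, which had 0 counts in WT and 2 in IRF8KO, and 83 with Tk1 on the other strand. Tk1, the thymidine kinase of dividing cells, starts 0.168 kb from Afmid and moved the same way, from 3.40 ± 1.80 to 10.6 ± 2.77 CPM (SD, n = 3), without being called (log2 fold change 1.65, SE 0.54, edgeR, Benjamini-Hochberg adjusted p = 0.051).

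Haao was counted in every WT library and in no IRF8KO library. Haao (ENSMUSG00000000673, chromosome 17, 83831156 to 83847963, minus strand, with no exon shared with another gene) had 74, 301 and 256 counts in WT replicates 1, 2 and 3 and 0, 0 and 0 in IRF8KO. In CPM these were 14.4, 21.3 and 35.3, a mean of 23.7 ± 10.6 (SD, n = 3), and 0. The WT libraries thus differ among themselves, with replicate 3 highest and replicate 1, the shallowest library, lowest. Against a floor of 3 counts over the 3 IRF8KO libraries, Haao was at least 211-fold lower. The deepest IRF8KO libraries allow at most 0.269 and 0.325 CPM. This difference chose the gene, so nothing further rests on it. Of the tested genes, 30 (0.272%) had 0 counts in all IRF8KO libraries.

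**Figure D1:**
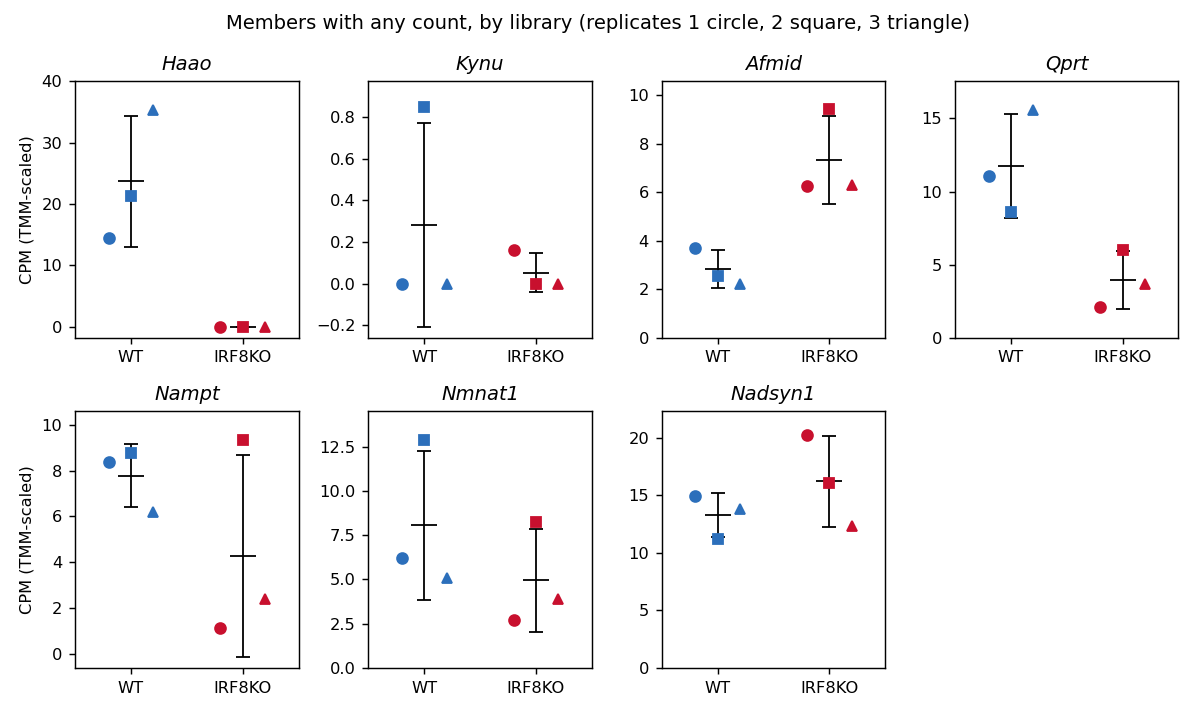
TMM-scaled CPM (vertical axes, linear and different in each panel) of the 7 members with any count, in WT (blue) and IRF8KO (red); circles, squares and triangles are replicates 1, 2 and 3, and black bars show mean ± SD (n = 3). Haao lies between 14.4 and 35.3 CPM in WT and at 0 in IRF8KO, Afmid and Qprt do not overlap between groups, and Nampt, Nmnat1 and Nadsyn1 do.

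Qprt, the enzyme that consumes the product of HAAO, was lower in IRF8KO but still present. Qprt (ENSMUSG00000030674, chromosome 7, 127107114 to 127122226, minus strand) had 57, 121 and 113 counts in WT replicates 1 to 3 and 13, 67 and 34 in IRF8KO replicates 1 to 3. These were 11.1, 8.57 and 15.6 CPM in WT and 2.09, 6.01 and 3.69 CPM in IRF8KO. The groups did not overlap, the closest pair being WT replicate 2 and IRF8KO replicate 2. The means were 11.7 ± 3.55 and 3.93 ± 1.97 CPM (SD, n = 3), and the fitted log2 fold change was −1.56 (SE 0.53). The gene was not called in the edgeR fit with TMM scaling to all 6 libraries. It was called in 4 of 16 alternatives: with DESeq2, with the GC offset and with first-strand counts, which keep all 6 libraries, and without IRF8KO replicate 2, where its log2 fold change was −2.0.

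The groups overlapped for the salvage enzyme Nampt and the adenylyltransferase Nmnat1. The wide spread of Nampt lay in IRF8KO, with an SD of 4.42 CPM against 1.38 CPM in WT (n = 3). Nampt (ENSMUSG00000020572, chromosome 12, 32819545 to 32853349, plus strand) had 43, 124 and 45 counts in WT replicates 1 to 3, or 8.37, 8.78 and 6.20 CPM. In IRF8KO replicates 1 to 3 it had 7, 104 and 22 counts, or 1.12, 9.33 and 2.39 CPM. IRF8KO replicate 2 was the highest of all 6 libraries and the other IRF8KO libraries the lowest, so the groups overlap. The log2 fold change of Nampt was −0.84 (SE 0.69), and −2.11 (SE 0.67) without IRF8KO replicate 2, the library in which neutrophil markers summed to 326 CPM. Without IRF8KO replicate 1 it was −0.39, without IRF8KO replicate 3 it was −0.53, and with an offset for GC content it was −0.43.

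Nmnat1 (ENSMUSG00000028992, chromosome 4, 149467572 to 149485202, minus strand) had 32, 182 and 37 counts in WT replicates 1 to 3 and 17, 92 and 36 in IRF8KO replicates 1 to 3. These were 6.23, 12.9 and 5.10 CPM in WT and 2.73, 8.26 and 3.90 CPM in IRF8KO, with replicate 2 the highest in each group. The log2 fold change of Nmnat1 was −0.70 (SE 0.58), between −1.27 without IRF8KO replicate 2 and −0.18 without WT replicate 2; without IRF8KO replicate 1 it was −0.40. Nadsyn1 (ENSMUSG00000031090, chromosome 7, 143795584 to 143822849, minus strand), the NAD synthetase, had 77, 158 and 100 counts in WT replicates 1 to 3 and 126, 179 and 114 in IRF8KO replicates 1 to 3. These were 15.0, 11.2 and 13.8 CPM in WT and 20.2, 16.1 and 12.4 CPM in IRF8KO, which overlap. Its log2 fold change of 0.29 (SE 0.38) turned to −0.24 with library size alone.

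In all, 6 of the 9 genes passed the filter on low counts, 1 of the 6 (16.7%, Haao) was called, against 19.1% of all tested genes, and 3 of the 6 (Afmid, Haao and Qprt) had groups that did not overlap, against 37.9% of all tested genes. The median log2 fold change of the 6 was −0.77, beside −0.11 for all tested genes, and it was −1.63 without IRF8KO replicate 2, −0.39 without IRF8KO replicate 1 and −0.46 without WT replicate 2. As Haao's loss was part of the choice, nothing is read from these counts.

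Levels of different genes were compared as CPM per kb of exon. In WT the order was Haao (5.06 ± 2.27), Qprt (4.44 ± 1.34), Nadsyn1 (4.03 ± 0.587), Nmnat1 (2.66 ± 1.39), Nampt (1.54 ± 0.274), Afmid (0.796 ± 0.221) and Kynu (0.0461 ± 0.0798; SD, n = 3), with Ido1 and Kmo at 0. Neighbours from Haao down to Nampt overlapped over the 3 libraries, so the order of adjacent genes is not resolved, but Haao, Qprt and Nadsyn1 all lay above Nampt in every library. Afmid lay above Kynu in every library. For Afmid this scale is too low, since reads on its shared exons are not counted. Over its 1890 exon bases shared with no other gene, a length added after seeing the data, Afmid had 1.49 ± 0.413 CPM per kb in WT (SD, n = 3), which overlaps Nampt. In IRF8KO the order was Nadsyn1 (4.91 ± 1.19), Afmid (2.07 ± 0.514), Nmnat1 (1.63 ± 0.959), Qprt (1.49 ± 0.746), Nampt (0.847 ± 0.875) and Kynu (0.00870 ± 0.0151; SD, n = 3), with Ido1, Kmo and Haao at 0. There Nadsyn1 lay above every other member except Afmid, which had 3.88 ± 0.962 CPM per kb (SD, n = 3) over its unshared bases and then overlapped Nadsyn1 but no longer Nmnat1. The genes from Nmnat1 to Nampt overlapped their neighbours. None of these is an abundant transcript: the mean of Haao in WT was above 59.5% of the tested genes on this scale, and that of Nadsyn1 in IRF8KO above 60.3%.

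**Figure D2:**
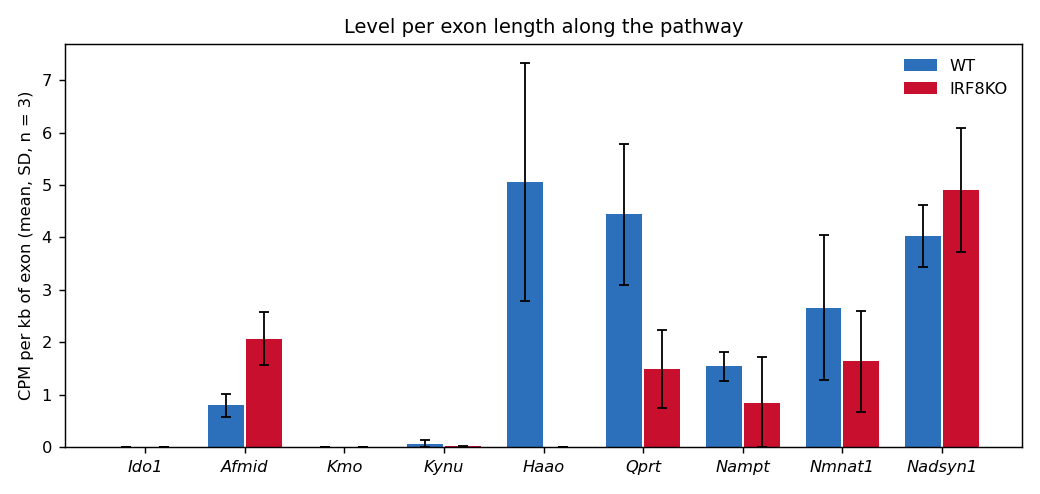
CPM per kb of exon (vertical axis, linear from 0) for the 9 members in the order of the pathway, WT in blue and IRF8KO in red; bars are means and black lines SD (n = 3), with the lower line stopped at 0. Haao and Qprt lead in WT at 5.06 and 4.44, and Nadsyn1 has the highest bar in IRF8KO at 4.91, while Ido1 and Kmo stay at 0; the Afmid bars use all exon bases and would be 1.49 and 3.88 over its unshared bases.

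The other enzymes around kynurenine were either silent or not called, which does not show that their groups were close. Of 8 genes in this list, 5 had 0 counts in all libraries: the liver dioxygenase Tdo2, its relative Ido2, the aminotransferase Aadat, and Acmsd and Aldh8a1, which divert the pathway from quinolinic acid. The other 3, Kyat1, Kyat3 and Got2, encode aminotransferases that can turn kynurenine into kynurenic acid. None of the 3 was called (edgeR), and none had an unadjusted p under 0.05 or a call in DESeq2 or limma-voom. The median log2 fold change of the 3 was 0.25, beside −0.11 for all tested genes. Got2, the most abundant, had 34.3 ± 12.3 CPM in WT against 40.9 ± 7.67 CPM in IRF8KO (SD, n = 3; log2 fold change 0.25, SE 0.32, and −0.21 with library size alone).

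Tryptophan entry was tested through 5 genes of a list of 8, with 1 called, a share near the 19.1% of all tested genes. Slc7a5 (ENSMUSG00000040010, chromosome 8, 121881150 to 121907694, minus strand), the light chain of the large neutral amino acid transporter that carries tryptophan and kynurenine, had 586, 1520 and 1531 counts in WT replicates 1 to 3 and 475, 543 and 319 in IRF8KO replicates 1 to 3. These were 114, 108 and 211 CPM in WT and 76.2, 48.7 and 34.6 CPM in IRF8KO. Every WT library lay above every IRF8KO library, and WT replicate 3 was highest. Slc7a5 fell by a fitted log2 fold change of −1.44 (SE 0.37, edgeR, Benjamini-Hochberg adjusted p = 0.019, lower in 3 of 3 libraries). The adjusted p was 0.059 without IRF8KO replicate 2 and 0.124 without IRF8KO replicate 3 (edgeR), and over all 16 alternatives it lay between 1.4e-04 and 0.124. Its partner chain Slc3a2 was more abundant and not called, at 1154 ± 389 CPM in WT against 1872 ± 322 CPM in IRF8KO (SD, n = 3; log2 fold change 0.70, SE 0.34, edgeR Benjamini-Hochberg adjusted p = 0.175). When WT replicate 3 was left out, Slc3a2 was called higher (log2 fold change 1.04, adjusted p = 0.0028, edgeR). The transporters Slc7a8 and Slc36a4 and the tryptophanyl-tRNA synthetase Wars were not called, and the median log2 fold change of the 5 was −0.60, or −0.10 without WT replicate 3 and −0.36 without IRF8KO replicate 1, beside −0.11 for all tested genes. Tph1 and Ddc, which lead from tryptophan to serotonin, had 0 counts in all libraries.

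Of the other NAD-making genes, 10 of 11 were matched by symbol, 6 were tested and none was called (edgeR; 1 with an unadjusted p under 0.05, none called in DESeq2 or limma-voom). Their median log2 fold change was 0.19. The most abundant was the NAD kinase gene Nadk, at 117 ± 31.8 CPM in WT against 167 ± 6.81 CPM in IRF8KO (SD, n = 3; log2 fold change 0.52, SE 0.28, edgeR Benjamini-Hochberg adjusted p = 0.220). Its groups did not overlap, but WT replicate 3, at 153 CPM, lay near the IRF8KO range of 163 to 175 CPM. Without WT replicate 3, 2 genes of this list were called higher (edgeR), Nadk among them (log2 fold change 0.80, adjusted p = 0.0081). Nmrk2, Nnmt and Slc12a8 had 0 counts in all libraries. Nmnat2, the neuronal relative of Nmnat1, had 0 counts in WT and 1, 9 and 10 in IRF8KO replicates 1 to 3, beside the neuron markers given above, and was too low to be tested.

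The list of NAD-consuming enzymes included Cd38, which was counted in IRF8KO only. Of 24 genes, 23 were tested and 3 were called, 1 higher and 2 lower (against 19.1% of all tested genes), with a median log2 fold change of −0.15. Cd38 (ENSMUSG00000029084, chromosome 5, 43868553 to 43912375, plus strand), the main NAD-hydrolysing ectoenzyme of leukocytes, had 0 counts in all WT libraries and 50, 230 and 181 in IRF8KO replicates 1 to 3. These were 8.03, 20.6 and 19.6 CPM, a mean of 16.1 ± 7.01 (SD, n = 3). Cd38 rose at least 153-fold against a floor of 3 counts over the WT libraries (edgeR, Benjamini-Hochberg adjusted p = 1.9e-04, higher in 3 of 3 libraries). It was called in all 16 alternatives, the fit without IRF8KO replicate 2 included, with adjusted p up to 0.0034. The border-associated macrophage markers given above moved with it, and their part in it was not tested. Bst1, the relative of Cd38 next to it in the genome, had 0 counts in WT and 4, 0 and 3 in IRF8KO.

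Parp1 (ENSMUSG00000026496, chromosome 1, 180568924 to 180601254, plus strand), the main ADP-ribosyltransferase of DNA damage, had 322, 887 and 417 counts in WT replicates 1 to 3 and 109, 221 and 189 in IRF8KO replicates 1 to 3. These were 62.6, 62.8 and 57.5 CPM in WT and 17.5, 19.8 and 20.5 CPM in IRF8KO. The 3 values of each group lay close together and far from the other group. Parp1 fell by a fitted log2 fold change of −1.66 (SE 0.27, edgeR, Benjamini-Hochberg adjusted p = 0.0015, lower in 3 of 3 libraries), and it was called in all 16 alternatives, at −2.17 to −1.58 and with adjusted p up to 0.016. Parp8 (ENSMUSG00000021725, chromosome 13, 116854820 to 117025537, minus strand) had 21.4, 20.2 and 3.86 CPM in WT replicates 1 to 3 and 2.57, 3.05 and 2.17 CPM in IRF8KO. WT replicate 3 was nearer to the IRF8KO libraries than to the other WT libraries. Parp8 fell by a fitted log2 fold change of −2.54 (SE 0.63, edgeR, Benjamini-Hochberg adjusted p = 0.016). Its log2 fold change was −1.70 with the GC offset and −3.14 with library size alone. It lost its call in 5 of 16 alternatives: limma-voom (0.059) and the edgeR fits without WT replicate 1 (0.062), WT replicate 2 (0.064), IRF8KO replicate 1 (0.064) and IRF8KO replicate 3 (0.094). All 7 sirtuin genes, NAD-dependent deacylases, were tested and none was called (edgeR). Sirt7 was the most abundant gene of this list that was not called, at 235 ± 12 CPM in WT against 230 ± 14.6 CPM in IRF8KO (SD, n = 3; log2 fold change −0.03, SE 0.26).

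**Figure D3:**
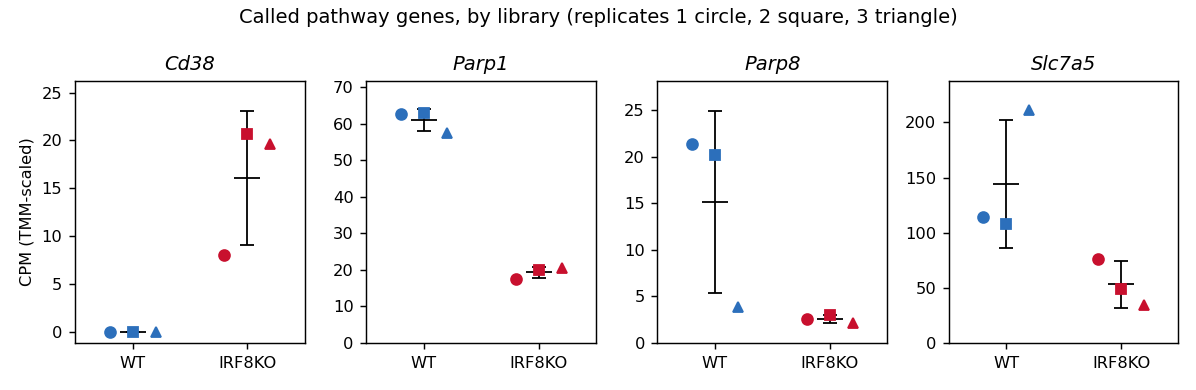
TMM-scaled CPM (vertical axes, linear and different in each panel) of the 4 called genes from the lists around the pathway, in WT (blue) and IRF8KO (red); circles, squares and triangles are replicates 1, 2 and 3, and black bars show mean ± SD (n = 3). Cd38 is at 0 in WT and at 8.03 to 20.6 in IRF8KO, Parp1 is tight in both groups, and WT replicate 3 of Parp8, at 3.86, lies near the IRF8KO libraries.

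Genes for cosubstrates and for receptors were not called in the fit to all 6 libraries, but 2 genes of each list were called without WT replicate 3 (edgeR). Of 6 genes that supply phosphoribosyl pyrophosphate to QPRT and NAMPT, pyridoxal phosphate to KYNU or flavin to KMO, all were tested and none was called (edgeR; 1 with an unadjusted p under 0.05, none in DESeq2 or limma-voom), with a median log2 fold change of −0.02. Pdxk, with the highest mean over both groups, had 71.3 ± 17.6 CPM in WT against 87.6 ± 23.9 CPM in IRF8KO (SD, n = 3; log2 fold change 0.30, SE 0.31, and −0.21 with library size alone), but other genes cover 39.0% of its exons. Of 7 genes for receptors of kynurenines, which include the aryl hydrocarbon receptor AHR, and for AHR targets, 3 were tested and none was called in edgeR (1 with an unadjusted p under 0.05), while DESeq2 called 1 and limma-voom none. The median of the 3 was −0.78, but it was 0.53 with limma-voom and 0.19 with the GC offset, so the 3 have no stable direction. The list median was also above 0 with no filter (5 genes tested) and without WT replicate 1, WT replicate 2 or IRF8KO replicate 2 (4 genes tested in each). Those medians cover further genes of the list, so they do not compare the same 3. Gpr35, a receptor for kynurenic acid with the highest mean over both groups, had 19.7 ± 6.43 CPM in WT against 33.4 ± 14.6 CPM in IRF8KO (SD, n = 3; log2 fold change 0.75, SE 0.40). Ahr was too low for the filter, with 0 counts in WT and 19, 3 and 25 in IRF8KO replicates 1 to 3, at least 15.6-fold higher against the floor of 3 counts over the WT libraries. With no filter it was called (edgeR, Benjamini-Hochberg adjusted p = 0.0019). Arnt, in the same list, moved the other way, from 29.9 ± 13.6 CPM in WT to 13.1 ± 3.26 CPM in IRF8KO (SD, n = 3). Its log2 fold change was −1.18 (SE 0.42, edgeR Benjamini-Hochberg adjusted p = 0.068), and it was the tested gene with an unadjusted p under 0.05. The AHR target Cyp1a1 was counted in IRF8KO replicate 2 alone (9 counts), and Cyp1b1 and Ahrr had 0 counts in all libraries.

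**Figure D4:**
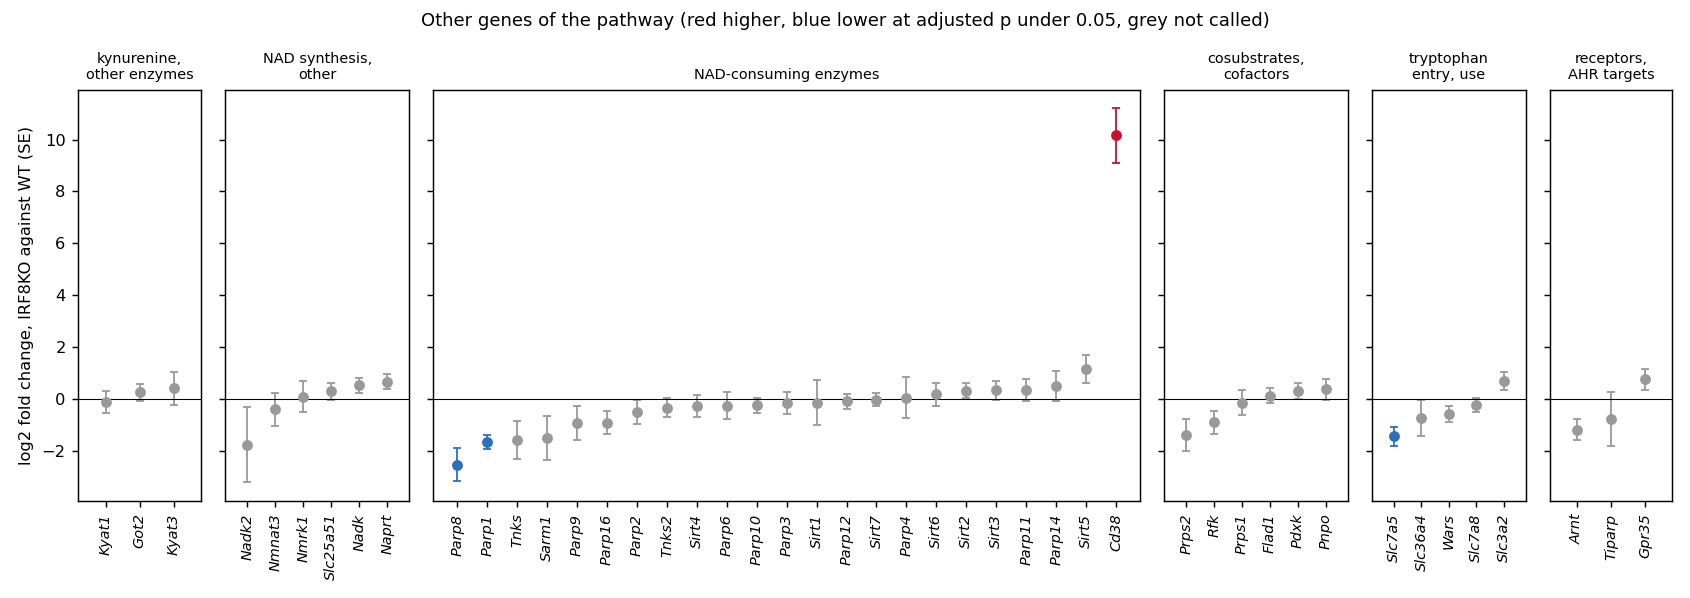
Log2 fold change of IRF8KO against WT (vertical axis) with its SE for every tested gene of the 6 lists around the pathway; red and blue mark genes called higher and lower (edgeR, adjusted p under 0.05) and grey genes that were not called. Cd38 stands at 10.16 (a fitted value against 0 counts in WT, so no bound), Parp1 at −1.66, Parp8 at −2.54 and Slc7a5 at −1.44, and no other tested gene was called.

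The genes on either side of Haao did not share its loss. Mta3, on the downstream side, had 9.09 ± 1.69 CPM in WT and 13.8 ± 2.62 CPM in IRF8KO (log2 fold change 0.61, SE 0.41), and Cox7a2l beyond it rose from 29.0 ± 5.55 to 79.9 ± 15.7 CPM (log2 fold change 1.47, SE 0.29, edgeR Benjamini-Hochberg adjusted p = 0.0048; SD, n = 3). On the upstream side, Zfp36l2 had 31.7 ± 15.1 and 14.7 ± 7.70 CPM (log2 fold change −1.10, SE 0.47, edgeR Benjamini-Hochberg adjusted p = 0.121; SD, n = 3), and Thada had 31.3 ± 5.90 and 32.0 ± 3.19 CPM. Zfp36l2 was called lower without WT replicate 3 (adjusted p = 0.029) and without IRF8KO replicate 2 (0.044, edgeR). Over the 7 members with any count, 5 of 28 neighbouring genes were called, 3 higher and 2 lower (edgeR), near the share of 19.1% over all tested genes. Besides Cox7a2l, they were Arhgap15 beside Kynu and AI467606 beside Qprt, which rose, and Pik3cg beside Nampt and Mrgpre beside Nadsyn1, which fell, at adjusted p = 0.0029, 0.016, 0.010 and 8.5e-05 (edgeR with Benjamini-Hochberg adjustment). AI467606 lost its call without WT replicate 1, WT replicate 2, IRF8KO replicate 1 or IRF8KO replicate 3, and Pik3cg without IRF8KO replicate 1 or 3, with adjusted p up to 0.088 (edgeR). Mrgpre, a G-protein-coupled receptor gene 38.3 kb from the Nadsyn1 start, had 715 counts in WT and 0 in IRF8KO, while Nadsyn1 itself overlapped between groups.

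**Figure D5:**
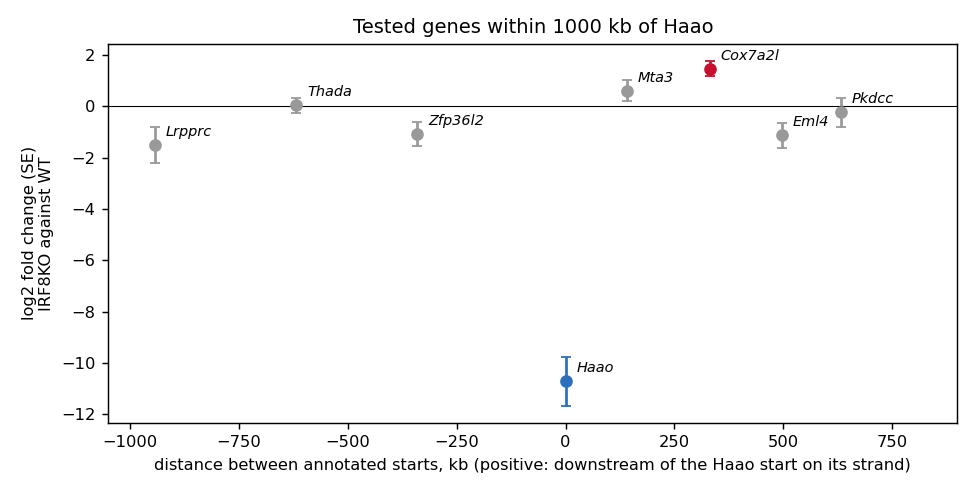
Log2 fold change of IRF8KO against WT (vertical axis) with its SE for the tested protein-coding genes whose annotated start lies within 1000 kb of the Haao start (horizontal axis, kb, positive downstream on the Haao strand); blue and red mark called genes and grey genes that were not called. Haao stands alone at −10.71 (a fitted value against 0 counts in IRF8KO, so no bound), and the other genes lie between −1.51 and 1.47.

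The genes whose profile was most like that of Haao were sought among 6173 other tested genes averaging 10 CPM or more, by the root mean square difference of centred log2 CPM over the 6 libraries, where 0 means the same profile. The 5 nearest were Mrgpre (0.26), Tlr12 (0.35), P3h2 (0.57), Npnt (0.64) and Ly86 (0.73), all on the log2 scale. Mrgpre, P3h2 and Npnt had 0 counts in IRF8KO, as Haao did, and Tlr12 and Ly86 fell to 28 and 70 counts over the IRF8KO libraries from 2536 and 8453 in WT. Of these, P3h2 shares 28.4% of its exons with another gene. The nearest to Qprt were Ano8 (0.26) and Slc7a6 (0.26), to Afmid AU020206 (0.11) and Fry (0.13), to Nampt Cab39 (0.22) and Khdrbs1 (0.24), to Nmnat1 Card6 (0.17) and Coa5 (0.18), and to Nadsyn1 Dalrd3 (0.09) and Fbxl17 (0.12). These are descriptions of 6 libraries in which genotype and library differences are both included.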

How the data were processed

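The authors deposited raw counts per gene in the layout of STAR; the submitters' processing notes name STAR (2.5.2b) and mm10, and also bcl2fastq, Picard (2.17.11), Subread and featureCounts, with no role given, and the annotation release is not given in the sources used here. Per the labels' protocols, cDNA came from SMART-Seq v4 and Nextera XT, without strand or molecular identifiers, so the counts that ignore strand were used. The 4 summary lines of each file were left out. Of 49585 genes, 49326 were matched to GENCODE M21 (GRCm38), the source of coordinates, and 259 were not; reads on exons of more than 1 gene are not counted by STAR.

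edgeR 4.0.16 in R 4.3.3 was used, with the default filter (minimum count 10), TMM scaling, a quasi-likelihood fit with genotype as the single term, and Benjamini-Hochberg adjustment over all 11041 tested genes; a call is an adjusted p under 0.05. SE was derived from the F statistic. Genes below the filter took up to 0.313% of the counts of a library. DESeq2 1.42.0, limma-voom (limma 3.58.1), other scalings, no filter, stranded counts, a GC offset, a replicate block and leaving out each library were the alternatives; the unshared exon length was added after seeing the data. Replicates are separate brains per the labels, and no pair of files agreed within sampling noise (chi-square per degree of freedom at least 8.57).

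The members, the lists and the rule for named genes (called list genes, at most 6 by p, and the most abundant uncalled one of each list; neighbours of Haao and other called neighbours, 2 tested protein-coding genes a side; the nearest profiles) were chosen with earlier results of these data known. The code was tested on simulated data.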

Additional observations from a re-analysis of the deposited data

How the results depend on the processing

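The number of members called, Haao included because its loss chose the set, rose from 1 to 2 with DESeq2, 2 with the GC offset and 3 with first-strand counts, by Qprt each time and by Afmid with first-strand counts; leaving out 1 library gave 1 to 2 (2 without IRF8KO replicate 2). The count of all called genes, 2109, ranged from 910 (without IRF8KO replicate 3) to 4003 (without WT replicate 3) over the fits that left out 1 library, and was 1308 when WT replicate 1 was dropped, 1171 for WT replicate 2 and 1147 for IRF8KO replicate 1. Calls in the list of other NAD-making genes rose from 0 to 2 with library size without Apoe and ranged from 0 to 2 without 1 library, as did those of the cosubstrate list (2 without WT replicate 3 in both). Tryptophan entry went from 1 to 3 with library size alone and to 2 with library size without Apoe, either strand or the GC offset, and ranged from 0 (without IRF8KO replicate 2 or 3) to 2 (without WT replicate 3). Receptors and AHR targets went from 0 to 1 with DESeq2, first-strand counts or the GC offset, to 2 with no filter, and from 0 to 2 without 1 library (2 without WT replicate 3, 1 without WT replicate 1 or IRF8KO replicate 2). Called neighbours went from 5 to 8 with library size alone or the GC offset and from 3 (without IRF8KO replicate 1 or 3) to 8 (without WT replicate 3) over the fits without 1 library. The cause of these shifts was not tested. With library size alone, the median log2 fold change turned to −0.24 for the other kynurenine enzymes and −0.37 for the other NAD-making genes, and that of the cosubstrate list, near 0, lay above 0 in 6 of 16 alternatives. No named gene that was called turned its direction. Deviations from the group means correlated at −0.26, 0.33 and 0.11 for replicate numbers 1, 2 and 3 across genes. The deviations of the 3 libraries of a group sum to 0, so these values cannot decide whether the numbers pair the samples. With the replicate block, 2353 genes were called and no further member. At this depth, genes below about 10 counts a library could not be tested, and a count of 0 allows up to 0.584 CPM in the shallowest library.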
